A study of Rattus norvegicus with 47 samples.

Results

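The major histocompatibility complex of the rat, named RT1, and the genes that prepare and load its peptides were followed here in the brain. The genes were every symbol that begins with RT1- plus 11 named partners of antigen processing, and 55 of the 15319 genes in the count tables met that rule. They comprised 45 RT1 genes and 10 of the 11 partners, and the other one was not analysed here. By role they were 3 class Ia genes, 32 class Ib genes, 6 class II chains, 4 genes of class II peptide exchange, the invariant chain Cd74, the class I light chain B2m, 3 immunoproteasome subunits, 4 genes of peptide transport and loading, and the class II regulator Ciita. Of the 55, 50 lie on chromosome 20 in the reference table of the GRCr8 assembly.

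The rats were Sprague-Dawley, an outbred stock, so the animals are not genetically identical. They breathed PCB52, a tetrachlorinated biphenyl, through the nose for 4 hours on each of 28 days, or were sham-exposed. Exposure began at 39 days of age in males and 42 days in females, and RNA of punches taken from striatum and from cerebellum was sequenced. Striatum gave 4 sham males, 6 PCB52 males, 6 sham females and 6 PCB52 females, and cerebellum gave 5, 5, 6 and 6 in the same order. The labels number the animals, and 21 animals had a library from both regions. The questions were whether these genes differ between the regions, between animals, and between exposed and sham rats.

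Class I molecules pair a heavy chain with B2m and display peptides cut by the proteasome, which the transporter made of Tap1 and Tap2 carries into the endoplasmic reticulum. Class II molecules are pairs of an alpha and a beta chain, guided by Cd74, and their peptides are exchanged by the DM pair in endosomes. In brain, class II genes are known mainly from microglia, perivascular macrophages and choroid plexus. Class I heavy chains are highly polymorphic and the number of class Ib genes is known to differ between rat strains.

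Windows of 300 bases around a RefSeq transcription start, 250 before and 50 after it, were held in the promoter table of build GRCr8 for 48 of the 55 genes. Tap1 and Tap2 differ in opposite directions between the regions. RT1-CE16 splits the animals into clusters, and RT1-A2 is compared between the regions animal by animal. RT1-A1 shared the most identical alignment columns with RT1-CE16 among the 3 class Ia genes, with gaps counted as columns. The windows of these genes are printed. Each is the 250 bases before the start, 5′ to 3′ on the strand of the gene, and capitals mark the 2 motifs searched on both strands, CCAAT and the interferon regulatory factor core GAAANNGAA. The windows printed lie at chr20:3265444-3265693 on the minus strand (RT1-CE16), chr20:4906959-4907208 and chr20:4872621-4872870 on the plus strand (RT1-A1, RT1-A2), and chr20:4668544-4668793 and chr20:4652297-4652546 on the minus strand (Tap1, Tap2).
RT1-CE16: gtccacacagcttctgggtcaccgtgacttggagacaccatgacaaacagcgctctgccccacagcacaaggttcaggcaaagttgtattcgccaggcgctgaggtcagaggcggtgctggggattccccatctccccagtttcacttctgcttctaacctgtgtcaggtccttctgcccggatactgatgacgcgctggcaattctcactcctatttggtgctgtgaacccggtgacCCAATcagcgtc
RT1-A1: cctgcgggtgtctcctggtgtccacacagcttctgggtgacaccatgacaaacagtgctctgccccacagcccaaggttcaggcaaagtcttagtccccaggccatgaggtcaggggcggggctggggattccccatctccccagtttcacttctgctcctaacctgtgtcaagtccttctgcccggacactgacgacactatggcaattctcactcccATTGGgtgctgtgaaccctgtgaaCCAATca
RT1-A2: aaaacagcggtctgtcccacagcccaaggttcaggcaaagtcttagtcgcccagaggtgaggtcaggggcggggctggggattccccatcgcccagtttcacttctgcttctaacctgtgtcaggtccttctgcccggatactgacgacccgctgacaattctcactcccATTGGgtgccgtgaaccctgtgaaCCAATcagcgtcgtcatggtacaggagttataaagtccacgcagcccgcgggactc
Tap1: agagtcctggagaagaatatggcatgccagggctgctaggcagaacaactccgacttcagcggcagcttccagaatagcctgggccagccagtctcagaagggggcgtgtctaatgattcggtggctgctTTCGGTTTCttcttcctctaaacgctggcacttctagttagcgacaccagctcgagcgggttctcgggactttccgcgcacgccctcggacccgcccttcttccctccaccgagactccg
Tap2: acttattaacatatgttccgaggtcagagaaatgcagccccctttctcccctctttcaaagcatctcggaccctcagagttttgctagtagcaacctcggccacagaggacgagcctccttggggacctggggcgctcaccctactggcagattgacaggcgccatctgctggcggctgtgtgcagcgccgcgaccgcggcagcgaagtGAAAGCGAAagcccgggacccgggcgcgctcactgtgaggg
In an end-to-end alignment of the 300-base windows, RT1-CE16 and RT1-A1 were identical at 249 of 306 columns (81.37%). RT1-A1 and RT1-A2 were identical at 232 of 349 (66.48%), and RT1-A2 and RT1-CE16 at 224 of 345 (64.93%). Columns with a gap, also where 1 window overhangs the other, count as not identical. The shares therefore fall where windows begin at different points of similar sequence, and they do not rank the genes by similarity. CCAAT was found in 34 of the 48 windows (70.8%) and in 37.7% of all 27457 windows of the table. The interferon regulatory factor core was found in 9 of the 48 (18.8%) and in 9.5% of all windows. Such a match describes letters only. The windows of Tap1 and Psmb9 overlap by 44 bases.

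Whole-number counts per library summed to between 5684508 and 8914523 in striatum and between 6524400 and 15865054 in cerebellum. The floor used for detection, 3 counts, was 0.337 to 0.528 CPM (counts scaled by library total) in striatal and 0.189 to 0.460 CPM in cerebellar libraries. Markers of striatal projection neurons summed to at least 5417 CPM in striatum and at most 616.0 in cerebellum, and markers of cerebellar granule cells to at least 4142 in cerebellum and at most 393.8 in striatum, in PCB52 female 22, against a striatal median of 32.2. In 5 libraries there were transcripts typical of both sexes (Xist and Eif2s3y both above 3 CPM): cerebellum sham females 8 and 10, cerebellum sham males 9 and 11, and striatum sham male 3. Another 5 had raised markers of a neighbouring tissue: choroid plexus in striatum PCB52 female 20 and cerebellum sham male 1, cortex in striatum PCB52 female 14 and PCB52 male 19, and olfactory bulb in striatum sham female 12. Which of these libraries hold tissue of more than 1 animal or region was not tested. Class I genes of RT1 are a family of related copies, and how shared reads were counted is not given in the sources used here. The division of reads between RT1 members is therefore uncertain.

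Of the 55 genes, 20 reached 3 counts in every library of both regions and 9 reached it in none. The 9 were the class Ib genes RT1-CE2, RT1-CE6, RT1-CE7, RT1-CE13, RT1-M2, RT1-M5 and RT1-N2 and the class II genes RT1-Db2 and RT1-Ha. The low-count filter left 29 genes for tests in striatum, 25 in cerebellum and 34 for the comparison of regions. Summed over all 55, the level was 544.8 CPM at the lowest, 689.0 at the median and 928.9 at the highest in striatum, and 493.4, 660.7 and 1177 CPM in cerebellum. In these punches, fewer cells of a type and less RNA per cell cannot be told apart.

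The 2 regions differed in which steps of the pathway were higher. Peptide exchange genes of class II (RT1-DMa, RT1-DMb), Tap1, the immunoproteasome subunits Psmb8 and Psmb9 and 8 class Ib genes were higher in striatum, whereas the class II chains RT1-Da and RT1-Db1, the invariant chain, B2m, Tap2, Tapbp and the class Ib gene RT1-M3-1 were higher in cerebellum. By edgeR's quasi-likelihood test, 20 of 34 genes passed an adjusted p of 0.05, 13 higher and 7 lower in striatum, while 80.9% of all 12446 genes passed (38.5% higher, 42.4% lower). The median log2 difference was 0.39 over the 34 and -0.04 over all genes.

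The DM pair, which swaps peptides on class II molecules, was higher in every striatal library than in any cerebellar one. RT1-DMa was at 54.5 CPM at the lowest, 70.2 at the median and 97.2 at the highest in striatum and at 16.5, 31.4 and 49.8 CPM in cerebellum. RT1-DMb was at 28.8, 39.5 and 51.9 CPM in striatum and 7.48, 13.4 and 25.1 CPM in cerebellum. The log2 differences, striatum minus cerebellum, were 1.19 ± 0.10 (SE; edgeR adjusted p = 8.24e-14) for RT1-DMa and 1.45 ± 0.12 (edgeR adjusted p = 3.23e-14) for RT1-DMb. The DO pair, RT1-DOa and RT1-DOb, was only grouped with DM by role. It had medians of 0 and 0.256 CPM in striatum and of 0 CPM for both in cerebellum, too low to be tested.

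The chains that present class II peptides moved the other way. RT1-Da, the alpha chain of the D molecule, was at 0.909 CPM at the lowest, 2.20 at the median and 7.92 at the highest in striatum and at 1.49, 5.02 and 20.9 CPM in cerebellum, a log2 difference of -1.15 ± 0.26 (SE; edgeR adjusted p = 9.14e-05). Its partner RT1-Db1 was at 0, 0.300 and 4.03 CPM in striatum and 0.118, 0.946 and 6.18 CPM in cerebellum, a difference of -1.68 ± 0.43 (edgeR adjusted p = 0.000512). Cd74, which chaperones both chains, was at 6.69, 11.9 and 43.1 CPM in striatum and 7.48, 23.7 and 61.5 CPM in cerebellum (-0.64 ± 0.22, edgeR adjusted p = 0.00775). The ranges of the regions overlapped for all of these. Leaving out any 1 library kept the difference between -1.24 and -0.999 for RT1-Da and between -0.75 and -0.54 for Cd74. RT1-Ba, the alpha chain of the B molecule, was at -1.20 ± 0.61 and did not pass (edgeR adjusted p = 0.0689). Ciita, the master regulator of class II transcription, had medians of 0.301 and 0.404 CPM, near the floor, and was not tested.

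The transporter's subunits were split between the regions. Tap1 was at 5.00 CPM at the lowest, 9.04 at the median and 15 at the highest in striatum and at 2.44, 4.30 and 6.08 CPM in cerebellum, whereas Tap2 was at 11.9, 17.8 and 31.8 CPM in striatum and 15.2, 37.5 and 51.2 CPM in cerebellum. The ranges of the regions met only at their edges for Tap1 and overlapped more widely for Tap2. The log2 differences were 1.13 ± 0.09 (SE; edgeR adjusted p = 2.61e-14) for Tap1 and -0.95 ± 0.12 (edgeR adjusted p = 1.88e-09) for Tap2. Tapbp, which bridges class I molecules to the transporter, was at -0.21 ± 0.07 (edgeR adjusted p = 0.00485), and its relative Tapbpl, an editor of class I peptides, was at 0.17 ± 0.08 and did not pass (edgeR adjusted p = 0.0612). Psmb8 and Psmb9, which replace standard catalytic subunits of the proteasome, were at 0.69 ± 0.22 and 0.76 ± 0.18, while the third such subunit, Psmb10, was at 0.11 ± 0.11 and did not pass (edgeR adjusted p = 0.381).

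Among class I heavy chains, none of the class Ia genes passed: RT1-A1 was at 0.11 ± 0.13, RT1-A2 at -0.02 ± 0.20 and RT1-A3 at 0.32 ± 0.27 on the log2 scale (SE; edgeR adjusted p = 0.445, 0.915 and 0.282). Class Ib genes passed mostly toward striatum. RT1-S3 was at 34.4 CPM at the lowest, 52.4 at the median and 78.9 at the highest in striatum and 23.6, 31.8 and 46.7 CPM in cerebellum, with the upper cerebellar libraries inside the striatal range and a log2 difference of 0.67 ± 0.09 (edgeR adjusted p = 2.01e-08). RT1-S2 (1.02 ± 0.16), RT1-N3 (0.51 ± 0.08), RT1-CE4 (1.26 ± 0.26), RT1-CE10 (1.38 ± 0.31), RT1-M1-2 (2.36 ± 0.51), RT1-M6-2 (0.93 ± 0.26) and RT1-T24-3 (0.43 ± 0.15) were also higher in striatum. In cerebellum RT1-M1-2 had a median of 1 count, with 9 libraries at 0, below the floor of 3. RT1-CE4 and RT1-M6-2 had medians of 3 and 4 counts there, so the sizes of these 3 differences are uncertain. RT1-T24-3 did not pass without the 5 libraries with transcripts of both sexes (0.35, edgeR adjusted p = 0.0548). RT1-M3-1, a class Ib molecule known to present formylated peptides, was lower, at -0.50 ± 0.08. B2m, the light chain shared by all of them, was at 262.5, 343.8 and 496.7 CPM in striatum and 270.1, 393.5 and 801.4 CPM in cerebellum, with wide overlap and a difference of -0.30 ± 0.10 (edgeR adjusted p = 0.00575).

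**Figure D1:**
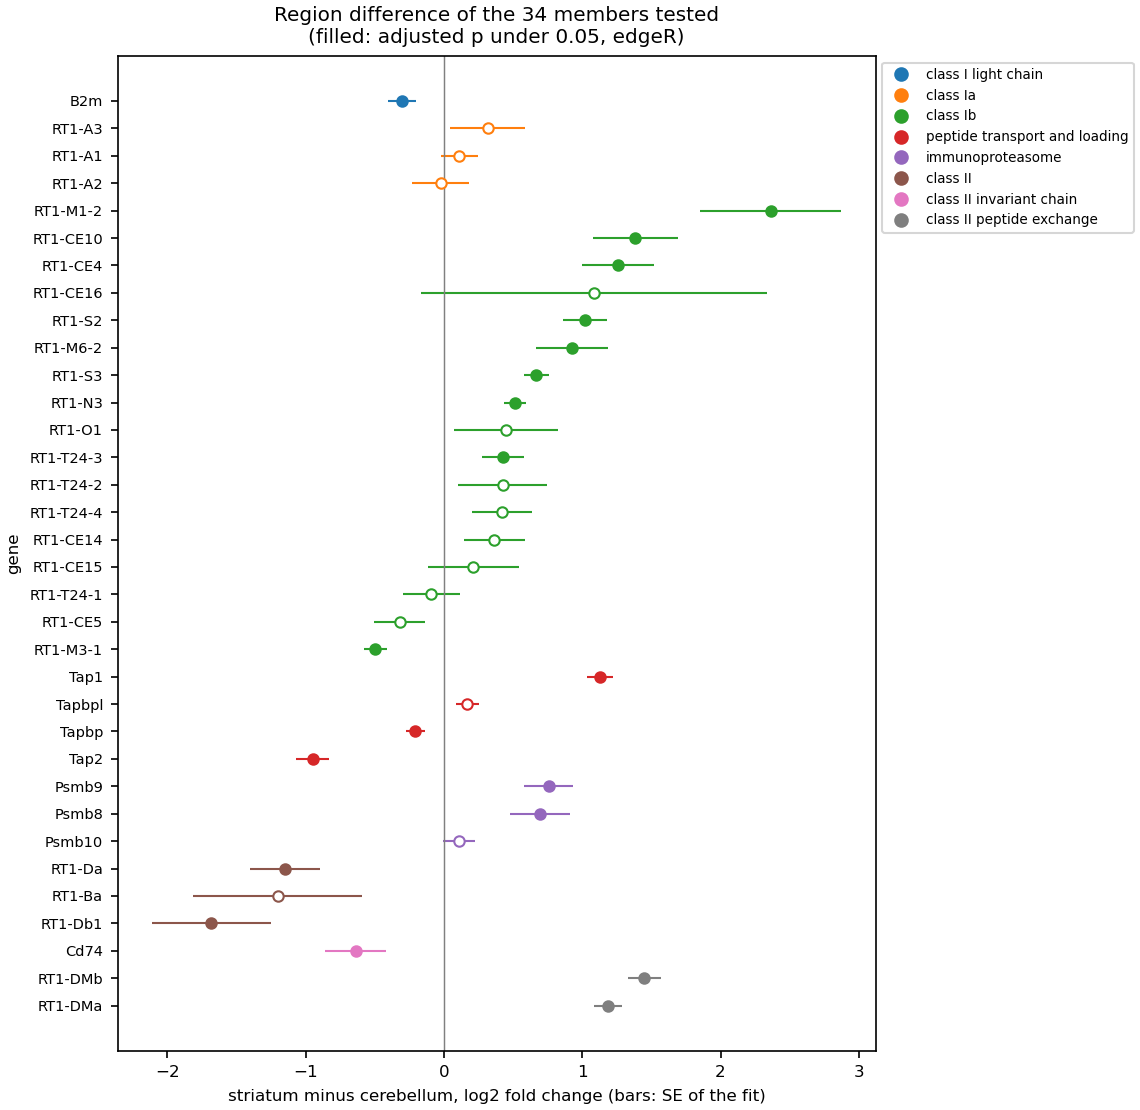
Log2 difference between striatum and cerebellum (x axis; bars are the SE of the edgeR fit) for the 34 genes tested (y axis), coloured by role and filled where the adjusted p was under 0.05. RT1-DMa, RT1-DMb and Tap1 sit right of 0, and RT1-Da, RT1-Db1, Cd74 and Tap2 sit left of it.

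Cell type markers moved with the same comparison. All 12 of 12 microglial markers were higher in striatum, with a median log2 difference of 1.67 and summed levels of 585.3 to 845.5 CPM against 180.8 to 306.3 CPM. Of 6 perivascular macrophage markers tested, 5 were higher and none lower, and summed levels were 11.8 to 23.1 against 2.61 to 15.8 CPM. All 11 of 11 endothelial markers were higher in striatum (median 1.28). None of these markers was at 0 in every library. RT1-DMa, RT1-DMb and Tap1 moved in the direction of these lists and RT1-Da, RT1-Db1 and Cd74 against it, and the lists' part in these differences was not tested.

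Other genes of the pathway, by edgeR, gave mixed counts between regions. Of 17 other antigen processing genes tested (a list that also holds Tap1), 4 were higher and 6 lower in striatum, with the MHC-like genes Mr1 at 2.36 ± 0.22 and Cd1d1 at 1.45 ± 0.18 and the proteasome activator Psme2 at -0.60 ± 0.12 (log2 ± SE). Of 9 other class II pathway genes, 5 were higher and 2 lower, with the endosomal proteases Ctss at 1.73 ± 0.08 and Ctsb at -0.90 ± 0.04. Of 20 regulators, 6 were higher and 9 lower, with the myeloid factor Irf8 at 2.33 ± 0.11 and Rfx5, a factor that binds class II promoters, at -0.61 ± 0.07. Of 20 interferon-induced genes, 14 were higher and 2 lower in striatum (median 0.64).

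Between animals of the same group, the class Ib genes RT1-CE16 and RT1-O1 varied most in both regions among 24 genes compared. The standard deviation (SD) of log2 CPM within groups had a median of 0.42 in striatum and 0.51 in cerebellum over these 24 genes. They are those that passed the low-count filter in both regions. Over all 11446 such genes the medians were 0.24 and 0.31. The 24 were not matched to all genes by level, and SDs of genes with few counts hold more counting noise. Of the 24, 9 in striatum and 8 in cerebellum were among the 1145 genes of largest SD in their region. The SD was larger in cerebellum for 20 of 24 genes, compared with 8111 of all 11446, and the median log2 ratio of the SDs was -0.25 against -0.34 over all genes.

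RT1-CE16 had an SD of 2.11 in striatum and 2.42 in cerebellum on the log2 scale, and RT1-O1 1.24 and 1.08. The size of these SDs depends on the prior count, since RT1-CE16 was at 0 in 15 libraries of each region and RT1-O1 in 3. In striatum RT1-A2 (0.73), Cd74 (0.72), Psmb8 (0.68), RT1-Da (0.63) and RT1-CE5 (0.62) followed. In cerebellum the order was RT1-Da (0.89), Psmb8 (0.80), Cd74 (0.72), RT1-T24-1 (0.71), RT1-CE14 (0.67), Psmb9 (0.62) and RT1-A2 (0.57). Counting noise was computed from mean counts, without the prior count of 2 that narrows the SDs of genes with few counts. For such genes the computed noise and the SD are therefore not on the same scale. Counting noise alone would give, in striatum and cerebellum, 0.20 and 0.19 for RT1-A2, 0.14 and 0.11 for Cd74, but 0.44 and 0.46 for RT1-O1. It would give 0.25 and 0.29 for Psmb8, 0.34 and 0.27 for RT1-CE5 and 0.47 and 0.49 for RT1-CE14. For RT1-T24-1 it would give 0.47 and 0.43, and its SD in striatum was 0.46. Part of the large SDs of genes with few counts is therefore counting noise. Tapbp, RT1-N3 and Tapbpl varied least in striatum, at 0.20, 0.20 and 0.18.

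A limma test on absolute deviations from the group means called 3 of 24 genes, all more variable in cerebellum, where 19.9% of all 11446 genes were called in that direction and 2.03% in the other. The share here, 3 of 24, was not above that of all genes, and with deviations from the group medians 0 of 24 were called. RT1-DMb had SDs of 0.25 in striatum and 0.49 in cerebellum (limma adjusted p = 0.0129), Tapbpl 0.18 and 0.32 (limma adjusted p = 0.0360) and B2m 0.22 and 0.40 (limma adjusted p = 0.0386). On simulated log2 values this test called more unchanged genes than its nominal rate. Without animal 1, 13, 15, 16, 20, 22 or 23 in turn, 1 gene was called each time.

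**Figure D2:**
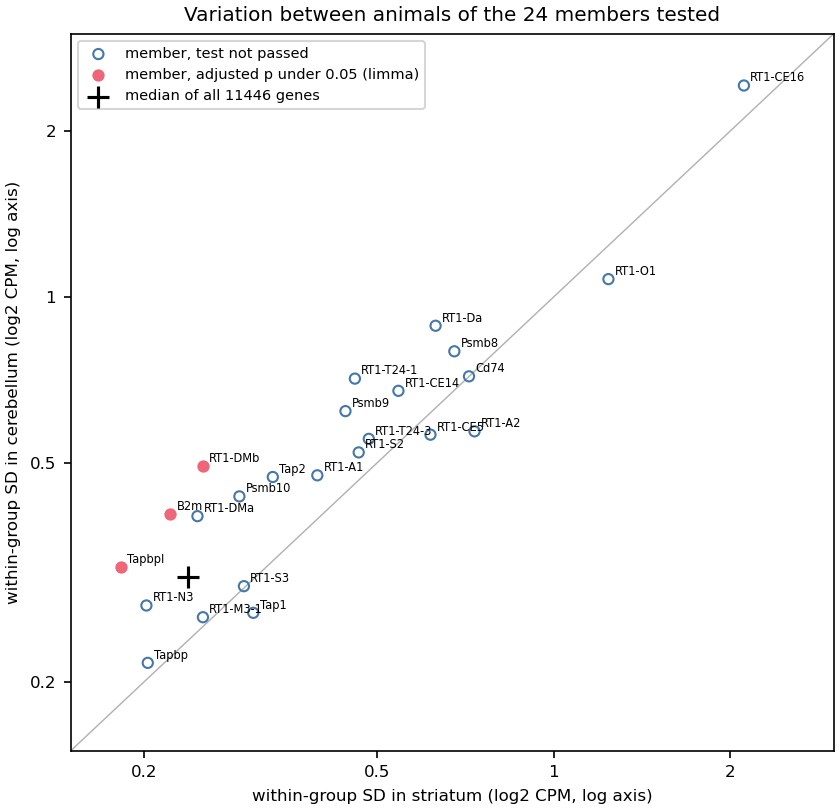
Within-group SD of log2 CPM in striatum (x axis) and cerebellum (y axis), both on log axes, for the 24 genes tested, with the median of all 11446 genes as a cross and equal values as a grey line. B2m, RT1-DMb and Tapbpl, filled, lie above the line, and RT1-CE16 (2.11 and 2.42) lies at the upper right.

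The content of ribosomal protein transcripts in a library moved with these values. The mean log2 CPM of 74 ribosomal protein genes ran from 7.59 to 8.99 in striatum and from 7.56 to 9.80 in cerebellum, with within-group SDs of 0.29 and 0.57. Across 22 cerebellar libraries, as deviations from group means, B2m followed it with r = 0.97 and rho = 0.95 (permutation p = 1e-05 for both, the smallest they can give), and r = 0.97 without the 2 farthest libraries. In striatum B2m had r = 0.85 (permutation p = 3e-05), rho = 0.81 (permutation p = 7e-05) and r = 0.70 without the 2 farthest. RT1-DMb had r = 0.79 (permutation p = 4e-05), rho = 0.72 (permutation p = 0.00054) and r = 0.68 without the 2 farthest in cerebellum. Over all genes the permutation test, Benjamini-Hochberg adjusted, called 36.3% positive and 37.2% negative in cerebellum, and 13 and 2 of 25 genes here. In striatum it called 21.6% positive and 23% negative of all genes, and 4 and 0 of 29 here. RT1-CE16, RT1-O1, RT1-A2 and Tap1 had r between -0.16 and 0.24 in both regions and were not among the genes called. With the ribosomal mean removed, a setting added after seeing the data, the SD of B2m was 0.12 in striatum and 0.09 in cerebellum, that of RT1-DMb 0.20 and 0.30, and none of the 24 genes was called for variation.

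**Figure D3:**
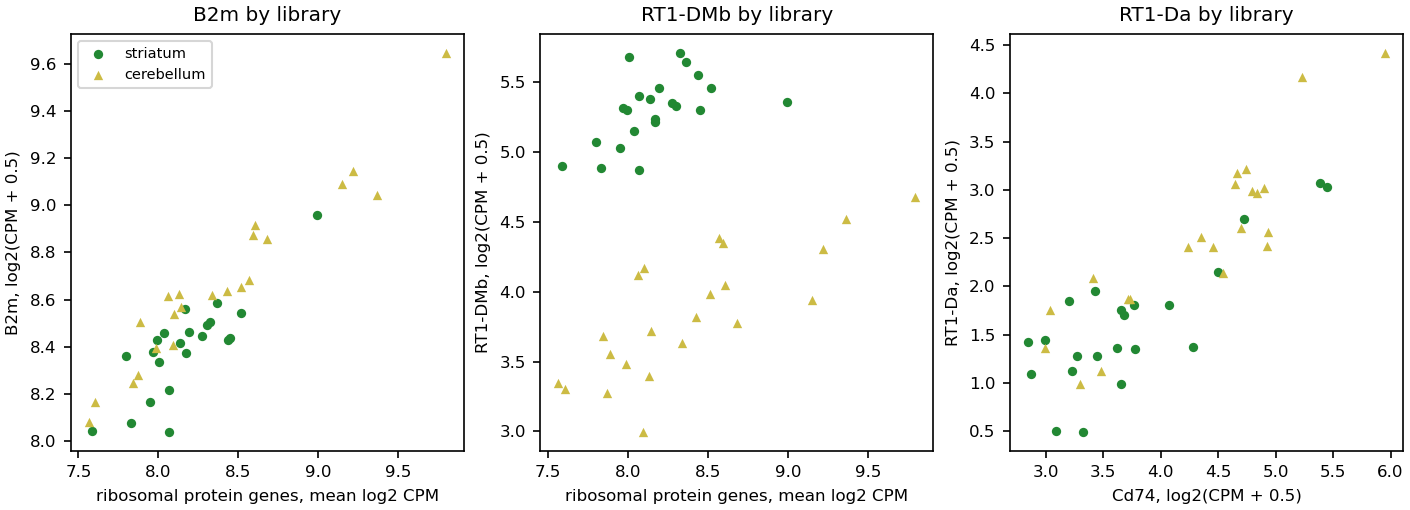
Each point is a library (circles striatum, triangles cerebellum). Left and centre, B2m and RT1-DMb as log2(CPM + 0.5) against the mean log2 CPM of ribosomal protein genes, and right, RT1-Da against Cd74, both as log2(CPM + 0.5). B2m rises with the ribosomal mean in both regions, whereas the RT1-DMb values of the regions do not overlap.

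RT1-CE16, a class Ib gene, was either clearly counted or at exactly 0. In striatum 7 libraries held 36 to 63 counts, 5.37 to 10.05 CPM with a median of 6.20, and the other 15 held none. In cerebellum 7 libraries held 57 to 91 counts, 8.33 to 11.8 CPM with a median of 11.1, and 15 held none. The lowest positive library was at least 10.2-fold higher in striatum and at least 18.1-fold higher in cerebellum than the highest floor, 3 counts per library, of the libraries at 0.

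The same animals carried it in both regions, with 1 exception. Animals 3, 8, 9, 10, 11 and 22 had counts in both regions and 14 animals in neither. Animal 6 had 0 counts in striatum and 90 in cerebellum. Animal 17, with a striatal library only, was positive. By group, 5 of 10 sham and 2 of 12 PCB52 libraries of striatum, and 6 of 11 sham and 1 of 11 PCB52 libraries of cerebellum, were positive.

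Libraries with transcripts of both sexes coincide with this pattern. All 5 animals that have such a library were positive for RT1-CE16 in both regions. Among the other 16 animals with both regions, 1 was positive in both, 14 in neither and 1 in cerebellum only. The 1 positive in both was animal 22, whose striatal library had the 393.8 CPM of granule cell markers. What part mixed or exchanged tissue has in the counts of RT1-CE16 was not tested. Because the animals form separate clusters, no correlation is given across all of them, and within the 6 animals positive in both regions r was -0.61 (exact permutation p = 0.224), rho -0.37 (exact permutation p = 0.497) and r without the 2 farthest -0.13.

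The class II genes RT1-Ba and RT1-Bb, alpha and beta chain of the B molecule, had low counts that also followed the animal in part. Their summed counts reached 3 in both regions in 9 animals (3, 8, 9, 10, 11, 21, 22, 23 and 24), in neither in 10, in striatum only in 1 and in cerebellum only in 1. Of the 10, 7 had 0 counts in both regions. RT1-CE16 and this pair were detected together in 7 libraries of each region, and the pair without RT1-CE16 in 4 striatal and 3 cerebellar libraries. RT1-CE16 was never detected without the pair. Animal 6 had 0 counts of the pair in striatum and 27 in cerebellum, so it was again on different sides.

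RT1-O1, another class Ib gene, had 0 counts in animals 10, 15 and 19 in both regions. Over the 22 striatal libraries it ran from 0 to 5.63 CPM with a median of 1.35, and over the 22 cerebellar ones from 0 to 2.54 CPM with a median of 1.21. Animals 14, 20 and 21 were among the highest in both regions. As deviations from group means, the regions correlated with r = 0.88 (permutation p = 0.00012) and rho = 0.83 (permutation p = 0.00016), and r = 0.81 without animals 10 and 15. After Benjamini-Hochberg adjustment over 11421 genes this permutation p was 0.228, so it did not pass.

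RT1-A2, a class Ia gene, was high in the same animals of both groups and both sexes. In striatum it was at 9.48 to 21.7 CPM in animals 1, 13, 14, 16, 19, 20 and 24, and at most 6.98 CPM in the others. In cerebellum animals 1, 13, 16, 19, 20 and 24 were at 9.76 to 15.9 CPM, and animal 14 was at 5.27 CPM. The striatal library of animal 14 is 1 of those with raised cortical markers, as is that of animal 19, and those of animal 20 in striatum and of animal 1 in cerebellum have raised choroid plexus markers. The regions correlated with r = 0.71 (permutation p = 0.00428) and rho = 0.69 (permutation p = 0.00711), r = 0.65 without animals 20 and 24, and adjusted permutation p = 1.00. Without the libraries with raised markers of a neighbouring tissue r was 0.70.

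Across the 23 genes without clusters, 19 had a positive r between regions and the median r was 0.29, against 7124 of 11421 and a median of 0.06 over all genes. The permutation test called 0 genes after adjustment, by Pearson's r or Spearman's rho, here and over all genes (0% called). At an unadjusted p under 0.05 it gave 5 of the 23 and 457 of 11421. Beside RT1-O1 and RT1-A2 these were RT1-T24-3 (r = 0.60), RT1-S3 (r = 0.50) and Psmb8 (r = 0.49). Without the 2 farthest animals these 3 were at 0.42, 0.21 and 0.33. B2m had r = 0.05, RT1-DMb -0.11 and RT1-DMa -0.23. Cd74 had r = 0.36 and RT1-Da 0.34.

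**Figure D4:**
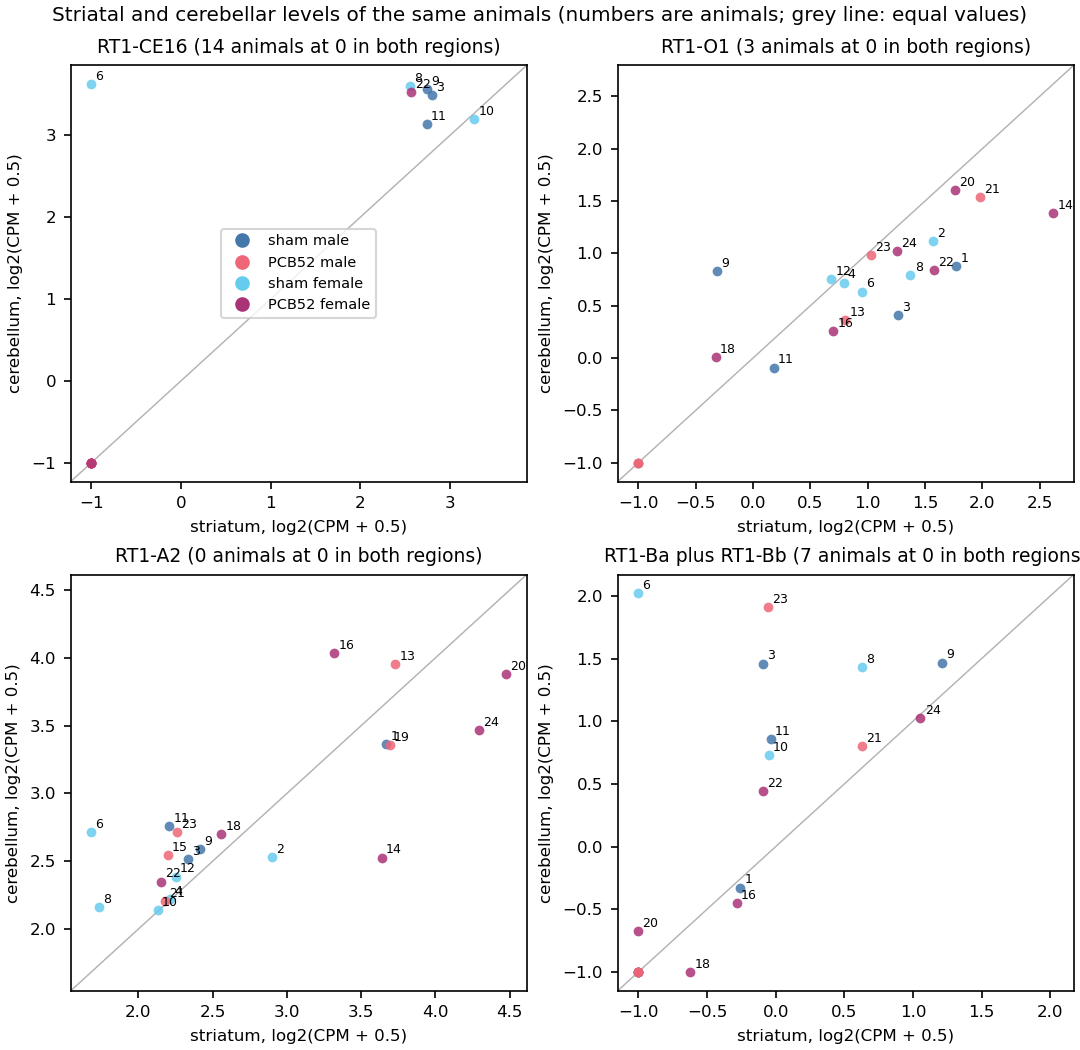
Level in striatum (x axis) and cerebellum (y axis) of the same animal, as log2(CPM + 0.5), for RT1-CE16, RT1-O1, RT1-A2 and the sum of RT1-Ba and RT1-Bb. Numbers are animals, colours are groups and the grey line marks equal values, with animals at 0 in both regions on 1 point at the lower left. Animal 6 stands alone at the upper left for RT1-CE16 and for RT1-Ba plus RT1-Bb.

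A profile of 24 genes, RT1-CE16 included, was compared between each cerebellar library and all striatal ones. For 8 of 21 animals the striatal library most like it was the animal's own, with a median r of 0.64 to the own library and -0.06 to others. Without RT1-CE16 the number was 5 of 21, and with all 11415 genes 4 of 21. With animals 1, 12, 14, 19 and 20 left out, which have libraries with raised markers of a neighbouring tissue, it was 5 of the smaller number of animals left. Animal 6 had r = -0.71 to its own striatal library, and -0.16 without RT1-CE16. Across these data 6 genes, Ddx3y, Eif2s3y, Xist, the epoxide hydrolase gene Ephx2, RT1-CE16 and a gene without a symbol, split the animals into clusters in both regions. Animals 3, 6, 8, 9, 10 and 11 were on different sides for 1 to 3 of the 6, and no other animal was for any. Ddx3y, Eif2s3y and Xist are sex-typical transcripts, and the gene without a symbol split the animals as Xist did. Animals 3, 8, 9, 10 and 11 were already named above for such transcripts, so for these 4 genes the count repeats that. Outside these genes only animal 6, for RT1-CE16, and animal 11, for Ephx2, were on different sides.

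Within a region, genes that rise and fall together were sought for Cd74 and for B2m, as markers of class II and class I, by the highest r over libraries. In cerebellum RT1-Da had the highest r with Cd74 of all 11689 genes: 0.87, with rho 0.85 (permutation p = 1e-05 for both, the smallest they can give), r = 0.89 without the 2 farthest, and an adjusted permutation p of 0.117. In striatum RT1-Da had r = 0.76 (permutation p = 0.00081), rho = 0.61 (permutation p = 0.0109), an adjusted permutation p of 0.114 and r = 0.55 without animals 4 and 20. The adjusted permutation test of r called 0 genes with Cd74 in either region (0% of all genes), and rho called 10 of all genes in striatum and 0 in cerebellum. At an unadjusted permutation p under 0.05 there were 7 of 28 genes here and 1619 of all in striatum, and 6 of 24 and 1816 in cerebellum. The microglial list mean had r = 0.65 with Cd74 in cerebellum (rho = 0.65, permutation p = 0.00531 and 0.00490, r = 0.80 without the 2 farthest) and r = 0.51 in striatum (rho = 0.45, permutation p = 0.0377 and 0.0624, r = 0.53 without the 2 farthest). The choroid plexus list had r = 0.51 in striatum (rho = 0.43, permutation p = 0.0384 for both) and 0.20 without the 2 farthest. In cerebellum the interferon-induced list had r = 0.48 with Cd74 (rho = 0.45, permutation p = 0.0366 and 0.0504), and the remaining lists -0.23 to 0.35. The part of these lists in the relation was not tested.

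With B2m, 12 of 24 genes were called with a positive r in cerebellum by the adjusted permutation test, where 35.9% of all genes were, and 3 of 28 in striatum, where 11.2% were. A negative r was called for 2 of 24 in cerebellum, where 36.8% of all genes were, and for 0 of 28 in striatum, where 13.4% were. The 2 were RT1-S2 (r = -0.67, adjusted permutation p = 0.00653) and Tap2 (r = -0.53, adjusted permutation p = 0.0392). RT1-DMa led in cerebellum (r = 0.88, rho = 0.92, permutation p = 1e-05 for both, r = 0.87 without the 2 farthest), followed by Psmb10 (r = 0.88), Psmb9 (0.83) and RT1-S3 (0.80). Over all genes the highest was the ribosomal protein gene Rpl23a (r = 0.98), followed by Laptm4a and Rpl41. In striatum Psmb10 (r = 0.68), RT1-DMb (0.65) and RT1-A1 (0.60) were called, and Cst3 (0.93) was the highest of all genes. The microglial list mean had r = 0.80 with B2m in cerebellum (rho = 0.84, permutation p = 1e-05 and 3e-05, r = 0.82 without the 2 farthest) and r = 0.64 in striatum (rho = 0.71, permutation p = 0.00978 and 0.00135, r = 0.65 without the 2 farthest). The endothelial list mean had r = -0.77 in cerebellum (rho = -0.71, permutation p = 0.00026 and 0.0017, r = -0.76 without the 2 farthest). Other lists in cerebellum were also positive: interferon-induced genes 0.71 (permutation p = 0.0007), lymphocyte markers 0.67 (permutation p = 0.00135) and perivascular macrophage markers 0.59 (permutation p = 0.017). The lymphocyte markers summed to at most 9.07 CPM there. Red blood cell and choroid plexus lists had r = 0.20 and -0.22. In striatum interferon-induced genes had r = 0.59 (permutation p = 0.0103), and the remaining lists -0.23 to 0.33. At an unadjusted permutation p under 0.05, in either direction, there were 15 of 24 genes here and 8740 of all 11689 in cerebellum. In striatum there were 11 of 28 and 4758 of 12141. Such a p for a list is therefore not particular to that list, and B2m also followed the ribosomal protein mean. The part of these lists in the relation with B2m was not tested.

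PCB52 changed none of these genes past the threshold in either region. By edgeR 0 of 29 genes in striatum and 0 of 25 in cerebellum were called in males, in females, over both sexes or for the difference between sexes, and 0% of all genes were called in these comparisons. DESeq2 also called none of them, and over all genes it called 1, 23 and 0 in striatal males, females and both, and 1, 9 and 19 in cerebellum. At an unadjusted p under 0.05 edgeR gave 2, 2 and 2 genes here of 109, 1633 and 704 in striatum, and 6, 3 and 5 of 1673, 369 and 1727 in cerebellum, in the same order. The difference of the effect between sexes gave 4 of 471 in striatum and 4 of 254 in cerebellum.

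RT1-A2 had the lowest p of these genes in females. In striatum sham females were at 2.71 CPM at the lowest, 4.01 at the median and 6.98 at the highest and PCB52 females at 3.95, 10.7 and 21.7, so 2 PCB52 animals lay inside the sham range. The log2 effect was 1.49 ± 0.41 (SE; edgeR adjusted p = 0.244), and 1.17 without the libraries with raised markers of a neighbouring tissue. In cerebellum sham females were at 3.91, 4.45 and 6.05 CPM and PCB52 females at 4.60, 8.28 and 15.9, a log2 effect of 1.03 ± 0.34 (edgeR adjusted p = 1.00). The high values were those of animals 16, 20 and 24 in both regions and of animal 14 in striatum. Sham male 1 and PCB52 males 13 and 19 were also high, at 12.2, 12.8 and 12.4 CPM in striatum, and their groups' medians were 4.69 and 4.94 CPM in striatum and 6.28 and 6.06 CPM in cerebellum.

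Psmb9, an immunoproteasome subunit, had the lowest p in cerebellar males, at 1.17 CPM at the lowest, 1.93 at the median and 3.12 at the highest in sham and 2.09, 4.02 and 9.61 CPM in PCB52. The log2 effect was 1.44 ± 0.42 (SE; edgeR adjusted p = 0.313). The PCB52 males 15 and 23 of cerebellum, the highest of the group for Psmb9 at 7.54 and 9.61 CPM, have high ribosomal protein means, at 9.22 and 9.80 against a median of 8.24, and Psmb9 followed that mean in cerebellum (r = 0.84, rho = 0.79, permutation p = 1e-05 and 0.00028, r = 0.79 without the 2 farthest). The part of this in the effect was not tested. RT1-CE16 was at 0 in all 5 PCB52 males of cerebellum and positive in 3 of 5 sham males, each of which is an animal with a library that has transcripts of both sexes, and its edgeR adjusted p was 0.313. A fitted fold for it depends on the prior count and is not given.

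In striatal males RT1-T24-1, a class Ib gene, was at 0.586 to 0.907 CPM in sham and 0.757 to 2.24 CPM in PCB52, a log2 effect of 1.09 ± 0.39 (SE; edgeR adjusted p = 1.00), and RT1-N3 was at 0.39 ± 0.15. In striatal females RT1-CE14 was at 0.80 ± 0.38 (edgeR adjusted p = 0.364). Over both sexes the lowest p were those of RT1-T24-1 (0.79 ± 0.25) and RT1-A2 (0.82 ± 0.31) in striatum and Psmb9 (0.85 ± 0.28) in cerebellum. In cerebellar females Cd74 was at 19.9, 27.2 and 61.5 CPM in sham and 7.73, 12.7 and 29.3 CPM in PCB52, and 4 of 6 PCB52 libraries lay below all sham ones. Its log2 effect was -0.93 ± 0.39 (edgeR adjusted p = 1.00).

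The effect of PCB52 in females minus that in males was at -2.96 ± 0.88 for RT1-Db1, -1.55 ± 0.58 for Cd74 and -1.82 ± 0.77 for RT1-Da in cerebellum (log2 ± SE; edgeR adjusted p = 0.774 for each). Males had higher medians with PCB52 than sham for RT1-Db1 (1.79 against 0.584 CPM) and females lower ones (1.12 against 2.09 CPM). In striatum Tap1 was at 0.74 ± 0.27 and RT1-S2 at 1.01 ± 0.43 for the same difference (edgeR adjusted p = 0.914 for each). Among the sham libraries compared here, cerebellum females 8 and 10, cerebellum males 9 and 11 and striatum male 3 had transcripts of both sexes. They were counted under the sex of their labels.

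Females and males, averaged over treatments, did not differ past the threshold in any of these genes by edgeR, DESeq2 or limma, while 0.0494% of all genes did in striatum and 0.0257% in cerebellum by edgeR. At an unadjusted p under 0.05 edgeR gave 3 of 29 genes in striatum and 1 of 25 in cerebellum, and 396 and 182 of all genes. RT1-Da was at 1.01 ± 0.29 and Cd74 at 0.85 ± 0.30 in striatum, female minus male, and Tapbp at -0.28 ± 0.10 and Tapbpl at -0.27 ± 0.14 in cerebellum (log2 ± SE; edgeR adjusted p = 1.00 for each). In striatum the highest Cd74 libraries were sham female 4 (43.1 CPM) and PCB52 female 20 (41.3 CPM), the latter with raised choroid plexus markers. The 5 libraries with transcripts of both sexes, all of them sham, were also counted here under the sex of their labels, which limits the comparison of sexes.

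**Figure D5:**
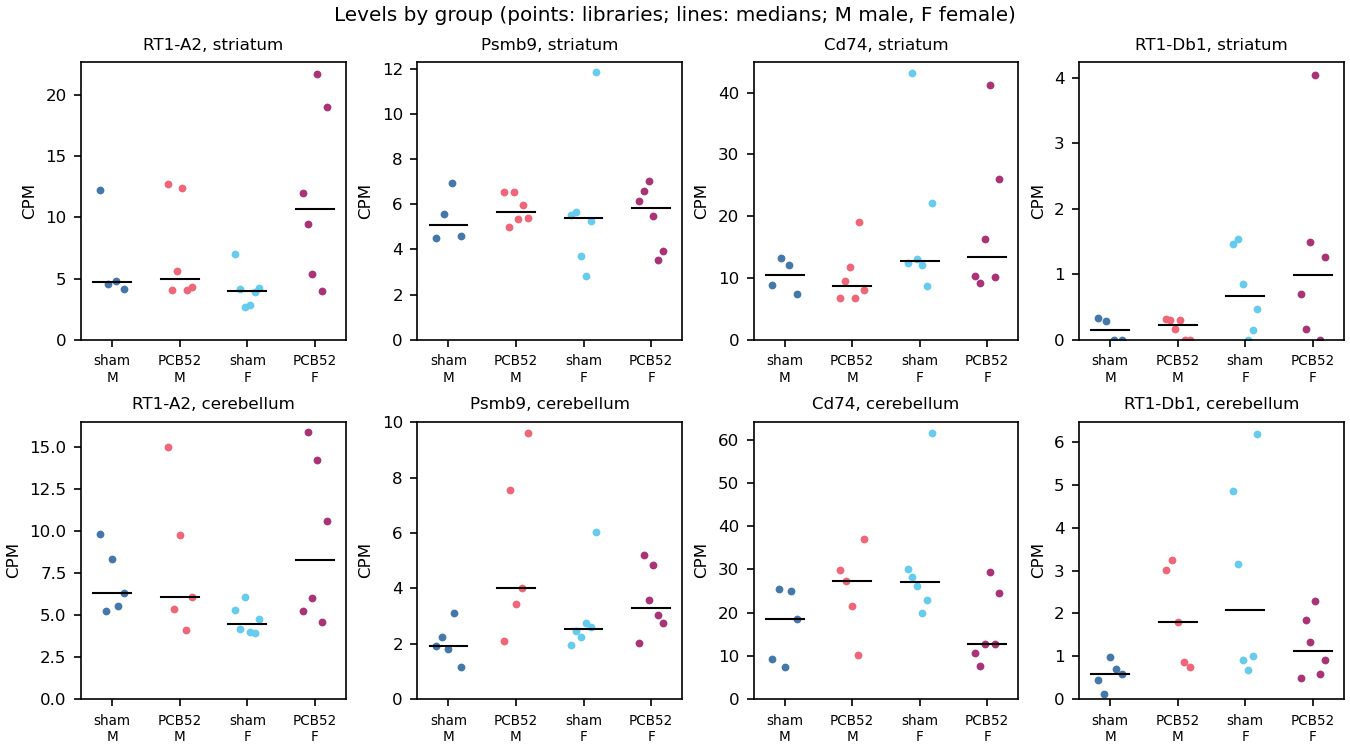
CPM (y axis) of RT1-A2, Psmb9, Cd74 and RT1-Db1 by group (x axis) in striatum (top) and cerebellum (bottom), with points for libraries and lines for medians. PCB52 females spread from 3.95 to 21.7 CPM for RT1-A2 in striatum and overlap the sham females, whose highest is 6.98 CPM.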

How the data were processed

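RNA from striatal and cerebellar tissue punches was sequenced. Per the labels' protocols, either poly(A) selection or ribosomal RNA depletion was used, with no statement of which. FastQC, HISAT2 and the rat build rn6 stand in the submitters' processing notes. The counter, the annotation and the strand setting were not given in the sources used here. The authors deposited whole-number counts per gene, not normalized, for 44 of 47 samples. Sham males 5 (both regions) and 7 (striatum) were not analysed here. Of 15319 gene identifiers, 15230 (99.4%) matched a symbol in a GRCr8 RefSeq table, used for names and for promoter sequences.

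The genes and lists were chosen with earlier results of these data known. The named genes followed the rule of the design: genes past a threshold, lowest p per comparison, largest SD, and set genes per role. CPM of single libraries divide counts by the library total. Expression was tested with edgeR 4.0.16 (R 4.3.3) quasi-likelihood fits, TMM scaling and the default low-count filter, on 4 groups per region or 8 over both, two-sided, Benjamini-Hochberg adjusted over all genes, with a threshold of 0.05. DESeq2 1.42.0 and limma 3.58.1 voom were alternatives. Variation was tested with limma on scaled absolute deviations of log2 CPM (prior count 2) from group means. It covered genes that passed the low-count filter in both regions. The own-animal match used those with a mean of at least 1 CPM in both regions. Correlations used 100000 permutations within groups. Genes with a gap of more than 1.5 log2 units between animals in either region were treated as clustered. These were left out of the correlation between regions. The promoter windows, 300 bases, were searched by script. Tests were tried on simulated data. Expression tests without libraries with raised markers of a neighbouring tissue, the Cd74 and B2m correlations and the removal of the ribosomal protein mean were chosen after seeing the data. The same animal number in both regions marks 1 animal, per the labels. Over all genes the median r between an animal's own libraries was 0.13, and 0.02 to those of others.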

Additional observations from a re-analysis of the deposited data

Results flagged for a closer look

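Single libraries far from the rest of their group were looked for in 17 of these genes over 136 groups, and 15 were found (chance flags about 1 in 20 groups). In striatum, sham male 9 stood high for RT1-DMb (46.4 CPM) and RT1-S3 (73.0 CPM), sham male 1 for RT1-A2 (12.2 CPM) and sham male 11 low for Psmb8 (2.22 CPM). Sham female 2 stood high for RT1-A2 (6.98 CPM) and sham female 12, which has raised olfactory bulb markers, for Psmb9 (11.8 CPM). Of PCB52 libraries of striatum, female 20, with raised choroid plexus markers, stood high for RT1-Db1 (4.03 CPM) and Tap1 (15 CPM), female 18 for Psmb10 (36.6 CPM) and male 17 for Tapbpl (13.9 CPM).

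In cerebellum, sham female 12 stood high for Cd74 (61.5 CPM), RT1-Da (20.9 CPM) and Psmb9 (6.05 CPM). PCB52 male 23, the library with the highest ribosomal protein mean, stood high for RT1-Da (17.4 CPM). Sham female 10 was listed at 0 CPM for RT1-O1, and its striatal library was at 0 as well.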

How the results depend on the processing

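Of the counts of genes called, 406 values under alternative settings stayed within 1.5 times the main value and 13 did not. For PCB52 and sex the number called was 0 under every setting run. The number that differed between regions was 20, and 19 to 27 under the alternatives: 22 with DESeq2, 21 with RLE size factors, 27 with no filter on low counts, 24 with limma voom, 22 with animal as a replicate block, 20 without the libraries with transcripts of both sexes and 20 without those with raised markers of a neighbouring tissue, and 19 to 23 leaving out 1 library. The number more variable in cerebellum was 3, and 1 with library totals in place of TMM, 0 with deviations from group medians, 0 with the ribosomal protein mean removed (chosen after seeing the data), 3 with the replicate block, and 1 to 4 leaving out 1 animal. With the ribosomal mean removed the difference turned to 0.029 for B2m and 0.0034 for Psmb10. The own-animal match was 8 of 21 animals, and 5 without RT1-CE16 and 4 with all genes (these 2 chosen after seeing the data). It was 5, of fewer animals, without those that have libraries with raised markers of a neighbouring tissue, and 6 to 10 leaving out 1 animal. The causes were not tested. With the replicate block no named gene changed its call. Of values for single named genes, 1832 kept their direction and side of the threshold, 30 lost the call and 3 gained it, mostly Tapbpl and B2m in the test of variation. Depth limits the class II chains RT1-Ba and RT1-Bb, Ciita and most class Ib genes, whose counts are near the floor of 3.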

Other observations

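Interferon-induced genes were compared between the regions animal by animal. Of 19 such genes that passed the low-count filter in both regions, 15 had a positive r between the striatal and cerebellar libraries of the same animals. The median was 0.41, and 9 had an unadjusted permutation p under 0.05. Over all genes 7124 of 11421 had a positive r, the median was 0.06 and 457 had such a p. Irf7, the interferon regulatory factor that amplifies the response, had r = 0.78 (permutation p = 9e-05, 0.228 after adjustment over 11421 genes), and the antiviral genes Mx2, Usp18 and Ifi44 had r = 0.77, 0.73 and 0.67. None passed after adjustment. Of 20 regulators of MHC genes, 9 had a positive r and the median was -0.01, and of 12 microglial markers 8 had a positive r with a median of 0.23.

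Ephx2, a soluble epoxide hydrolase, split the animals in 2 levels as RT1-CE16 did. Animals 2, 10, 14 and 19 were high in both regions and 20 of 21 animals were on the same side, the exception being animal 11.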
